A study of Mus musculus with 21 samples.

Results

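The 4 genes described here are Pou5f1 (which encodes Oct4), Sox2, Klf4 and Myc, the transcription factors whose forced expression turns mouse fibroblasts into induced pluripotent stem cells. They were taken by gene symbol from 3 tables of RNA sequencing values that together list 12404 genes. All 4 were listed in both tables of reprogramming cells, among 10723 and 12021 genes, and 2 of them, Klf4 and Myc, were listed among the 11152 genes of the table of unreprogrammed fibroblasts. Each symbol stood for 1 gene in each table, and each value joins the RNA of the resident gene with the RNA of the retroviral copy, which carries the same coding sequence.

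The cells were mouse embryonic fibroblasts (MEFs) of strain ICR, taken from 13.5-day embryos and used at passage 2. Every culture, controls included, was infected for 48 hours with retroviruses that carried its constructs, and each combination of constructs had 1 library in each setting, 21 libraries in all. The control carried Flag+shLuc, an empty tag with a hairpin against luciferase. The other constructs were Dnmt1 (the maintenance DNA methyltransferase), shDnmt1 (a hairpin against it), shp53 (a hairpin against the tumour suppressor p53, gene Trp53) and Tet1CD (by its name the catalytic domain of Tet1, which oxidises methylated cytosine).
The MEF table held the libraries Flag+shLuc, Dnmt1, Tet1-CD, shDnmt1, shp53 and shp53+shDnmt1, and a seventh, 5C Flag+shLuc, whose source is given as MEFs and whose prefix the labels do not explain. The column header of the 5C library also names day 4. The SKOM libraries were MEFs that had also received retroviruses for all 4 factors and were harvested on day 5, in embryonic stem cell medium with leukaemia inhibitory factor. That medium either lacked vitamin C (Vc-) or contained it (Vc+). Each medium had 7 libraries: Flag+shLuc, Dnmt1, shDnmt1, shp53+shDnmt1, Tet1CD, Tet1CD+Dmnt1 (spelled so in the labels) and Tet1CD+shDnmt1. The cultures were bulk mixtures in which the infected cells had not been sorted, as far as the labels say, and no label says which libraries share a batch of fibroblasts.

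Oct4 and Sox2 bind DNA together at the enhancers of pluripotency genes. Klf4 is a zinc-finger factor that opens many of the same sites and activates epithelial genes early in reprogramming, while Myc, paired with Max, raises genes of ribosome production, metabolism and cell division. Fibroblasts make Klf4 and Myc of their own, and keep Pou5f1 and Sox2 silent. Retroviral copies are driven by the viral promoter, which pluripotent cells silence with histone and DNA methylation, so a factor's total can fall as the virus is silenced and can rise as the resident gene opens.

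Because the constructs act on DNA methylation, the CpG content of the resident promoters is of interest. The RefSeq promoter set (GRCm38.p6, the mm10 assembly) held windows for 3 of the 4 factors. The 250 bases before the RefSeq start of Pou5f1 (chr17:35505782-35506031, plus strand) and of Klf4 (chr4:55532476-55532725, minus strand) are shown for their contrast in the number of CpGs. They run 5′ to 3′ with each CpG in capitals.
Pou5f1: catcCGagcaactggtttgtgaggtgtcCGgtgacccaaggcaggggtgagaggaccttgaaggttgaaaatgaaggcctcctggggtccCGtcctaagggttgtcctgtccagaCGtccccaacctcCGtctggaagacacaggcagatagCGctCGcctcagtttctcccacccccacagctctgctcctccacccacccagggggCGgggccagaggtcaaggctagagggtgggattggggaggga
Klf4: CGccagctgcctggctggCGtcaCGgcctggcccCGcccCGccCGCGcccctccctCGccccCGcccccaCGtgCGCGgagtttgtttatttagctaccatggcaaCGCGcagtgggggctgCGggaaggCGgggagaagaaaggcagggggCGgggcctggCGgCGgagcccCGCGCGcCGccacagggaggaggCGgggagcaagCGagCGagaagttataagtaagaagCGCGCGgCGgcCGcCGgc

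The Pou5f1 window shown held 8 CpGs, a number reached or passed by 43.0% of the 32851 RefSeq promoter windows of this length. The Klf4 window held 32, reached or passed by 4.58% of them, and the Sox2 window (chr3:34649745-34649994, plus strand) held 27, reached or passed by 8.56%. The E-box CACGTG, the letters that Myc with Max prefers, stood once in the Klf4 window, in neither of the other windows, and in 6.02% of all windows. The letters GGGCGG, read by Sp and Klf proteins, stood 4 times in the Klf4 window, 2 times in that of Sox2 and once in that of Pou5f1, against 32.7% of all windows with at least 1, and the octamer ATTTGCAT was in none of these windows and in 1.60% of all. A second Pou5f1 window of the set (chr17:35508557-35508806, plus strand), not shown, held 6 CpGs and no match to the searched letters. Both strands were searched, a match is only a match of letters, and DNA methylation was not measured in these libraries.

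The values are whole numbers that the authors had normalized within each table, so that all libraries of a SKOM table share nearly 1 sorted list of values and reading depth is unknown. In the upper part of that list the values came in steps: in each of the 14 SKOM libraries, all 50 blocks of 10 genes from the top down lay within 1% of 1 value. The steps are wide at the top. In Vc- the first step stood at 19681 and the next at 10801, 0.87 apart on the log2 scale, and in Vc+ at 28926 and 18125, 0.67 apart. From step 5 to step 30 the median gap was 0.06 and 0.05. The values are not per length, so levels are compared below between libraries for 1 gene and not between genes, and log2 changes are on the log2(value + 5) scale.

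Levels of the genes that the constructs target served to check the labels. Tet1 was between 2140 and 3129 in the 6 SKOM libraries with Tet1CD and between 11 and 88 in the other 8. It was not listed in the MEF table, so the MEF Tet1-CD library had no such check. Dnmt1 was lower in each hairpin library than in its control, at 208 against 957 in MEFs, 527 against 984 in Vc- and 1154 against 2346 in Vc+. Without the hairpin, Dnmt1 was also low in Vc+ with Tet1CD, at 1080, and with Tet1CD+Dmnt1, at 1224. In Vc- those constructs had 967 and 778. In the MEF table Dnmt1 was 458 with Tet1-CD and 100 in the 5C library. A low value of Dnmt1 is thus not particular to the hairpin. It was not raised in the libraries labelled Dnmt1, at 975, 1001 and 2381, so those libraries gave no check of that construct in the tables. Trp53 was 157 and 186 in the MEF libraries with shp53 against 1008 in the control, and 453 and 621 in the SKOM libraries with it against 873 and 1194. Of 15 fibroblast markers, 15 were listed in MEFs, 14 in Vc- (Pdgfra was not) and 15 in Vc+.

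Pou5f1 (ENSMUSG00000024406, mm10, chr17:35506018-35510772, plus strand), the factor that reprogramming can least do without, was present in all 14 SKOM libraries. In Vc- it stood at 3122 in the control, 3885 with Dnmt1, 3688 with shDnmt1 and 4210 with shp53+shDnmt1, and at 3884, 2697 and 3005 with Tet1CD, Tet1CD+Dmnt1 and Tet1CD+shDnmt1. The 2 groups overlapped there: the highest library with Tet1CD lay above the control, on the same step as Dnmt1. In Vc+ the corresponding values were 4772, 6109, 5359 and 6109 without Tet1CD, and 3259, 3259 and 3076 with it. All 3 Tet1CD libraries lay below all 4 others in that medium.

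Sox2 (ENSMUSG00000074637, mm10, chr3:34650005-34652461, plus strand), the partner of Oct4 on DNA, spanned a narrower range than Pou5f1 in each medium. In Vc- it was 2540 in the control, 2697 with Dnmt1, 2697 with shDnmt1 and 3122 with shp53+shDnmt1, against 2627, 2233 and 2375 in the libraries Tet1CD, Tet1CD+Dmnt1 and Tet1CD+shDnmt1. The Tet1CD library lay above the control, so the groups overlapped. In Vc+ it was 3885, 4282, 4282 and 4583 without Tet1CD, and 2500, 2469 and 2379 with it, with no overlap. Sox2 lies inside the noncoding gene Sox2ot, and how reads in overlapping genes were assigned is not given in the sources used here.

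Klf4 (ENSMUSG00000003032, mm10, chr4:55530712-55532453, minus strand) was 4210 in the control, 4620 with Dnmt1, 5732 with shDnmt1 and 7021 with shp53+shDnmt1 in Vc-. This was the widest spread of any factor in those libraries, leaving out Myc, whose values there sat at the ceiling. The Tet1CD, Tet1CD+Dmnt1 and Tet1CD+shDnmt1 libraries of that medium, at 5059, 4210 and 4822, lay within that spread. In Vc+ Klf4 was 7995, 10302, 9344 and 10301 without Tet1CD and 3886, 4142 and 4141 with it. The lowest of the first group was above the highest of the second by far more than either group's own range of steps: the first group occupied steps 4 to 7 of the list and the second steps 19 to 21.

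Myc (ENSMUSG00000022346, mm10, chr15:61985391-61990350, plus strand) stood at the top of its Vc- table, 19681, in all 4 libraries lacking Tet1CD, so differences among those libraries cannot be seen. With Tet1CD, Tet1CD+Dmnt1 and Tet1CD+shDnmt1 it was 10782, 7021 and 10782, which are steps 2, 4 and 2. In Vc+ it was 18104 in the control, 13537 with Dnmt1, 18104 with shDnmt1 and 13535 with shp53+shDnmt1, below the ceiling of that table, and 6109, 7069 and 7995 with Tet1CD. The groups did not overlap in either medium, and Myc was the one factor of which this held in Vc-.

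**Figure D1:**
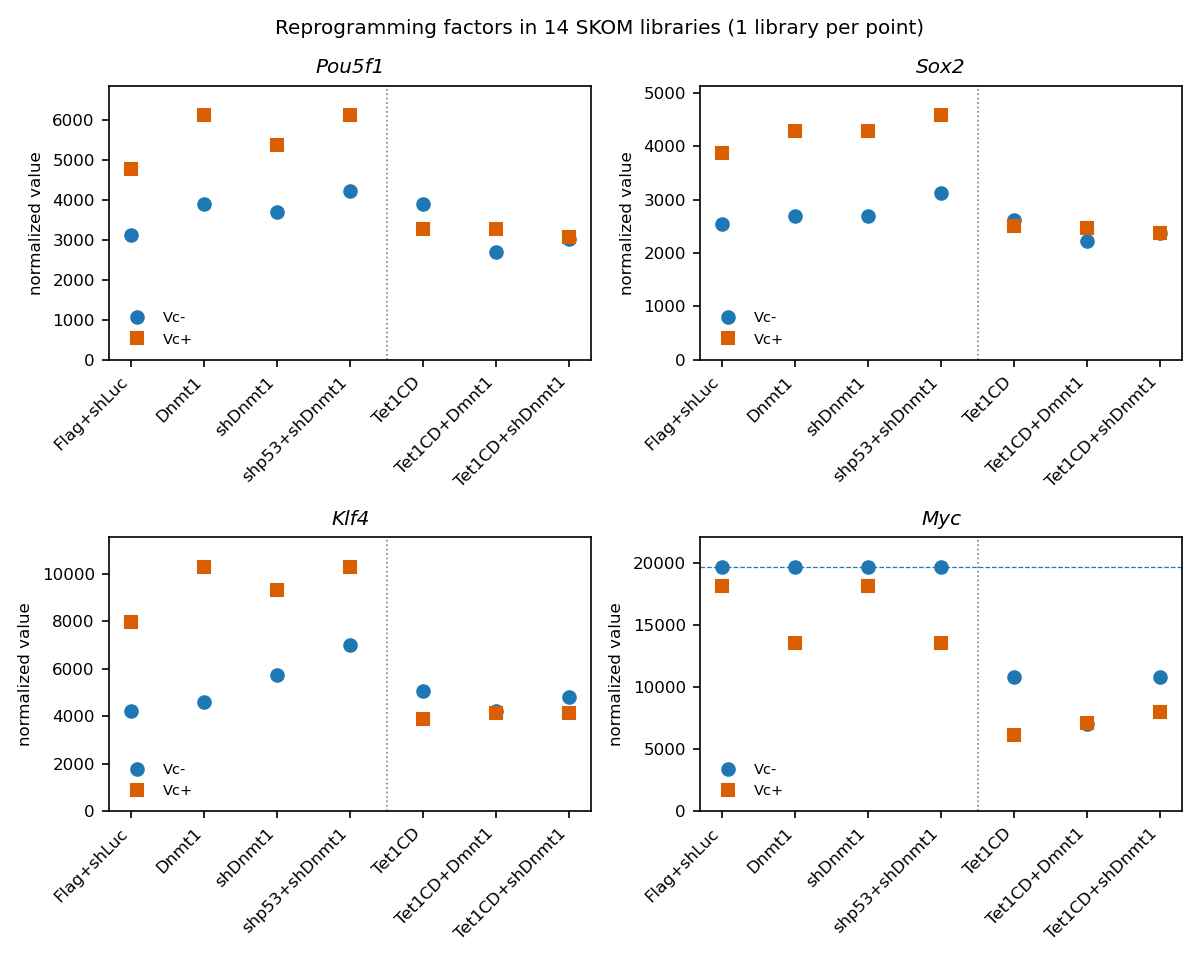
Normalized values (vertical axis, linear from 0) of the 4 factors in the 14 SKOM libraries, 1 point per library, by constructs (horizontal axis) and medium (circles Vc-, squares Vc+); the dotted line parts libraries without Tet1CD (left) from those with it, and the dashed line in the Myc panel is the ceiling of the Vc- table, 19681. In Vc+ the 3 Tet1CD libraries lie below the other 4 in every panel, while in Vc- they do so for Myc and overlap the others for Pou5f1, Sox2 and Klf4.

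The Tet1CD libraries lay below all others for 1 of the 4 factors in Vc-, against 15.7% of all genes there, and for 4 of 4 in Vc+, against 31.3%. The change was tested in a model of all 14 libraries with terms for medium and for each construct (limma with Benjamini-Hochberg adjustment over 10711 genes), in which all 4 factors were called lower with Tet1CD, as were 24.9% of all genes tested. Myc fell by 1.15 ± 0.10 (SE) on the log2 scale, with an adjusted p of 4.3e-05. As 4 of the 8 Myc values without Tet1CD sit at the ceiling, 1 value shared by 10 genes, the size of that fall is not resolved. The first step below the ceiling in Vc- is already 0.87 lower on the log2 scale. The estimates of the other factors were -0.61 ± 0.18 for Klf4, -0.45 ± 0.11 for Sox2 and -0.46 ± 0.13 for Pou5f1 (SE), with limma adjusted p of 0.0179, 0.00632 and 0.0133. With a single library for each combination, the residual spread of the fit stands in for replicate error and also holds any departure from additivity.

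An exact test on the same values used no other genes, and its direction is not separate support. It had no terms for the other constructs, and shp53 was present only in libraries without Tet1CD. When the Tet1CD labels were exchanged among the libraries within each medium in all 1225 ways, the exact two-sided permutation p was 0.000816 for Myc, the smallest this design allows, 0.00163 for Sox2, 0.00571 for Pou5f1 and 0.0098 for Klf4. Within 1 medium there are 35 assignments and the smallest p is 0.0286. All 4 factors reached it in Vc+, and Myc alone reached it in Vc-, where the p was 0.0857 for Sox2, 0.229 for Pou5f1 and 0.514 for Klf4. In bulk RNA, fewer cells carrying a factor's virus and less RNA of it per cell cannot be told apart.

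The Tet1CD effect on Klf4 and on Sox2 differed between the media. In Vc- the fitted change of Klf4 was -0.04 with a 95% interval of -0.27 to 0.19, and in Vc+ it was -1.18 with an interval of -1.39 to -0.96. The test of the difference itself (limma interaction term, Vc+ minus Vc-) gave -1.14 ± 0.15 (SE) with an adjusted p of 0.00203. For Sox2 the difference was -0.62 ± 0.12 (SE), adjusted p 0.00921, and for Pou5f1 it was -0.58 ± 0.20 (SE), adjusted p 0.0767, which missed the threshold. The 2 factors called are to be read against 8.28% of all genes called in the same direction. Over all genes tested, too, the change with Tet1CD was larger in Vc+, with a median absolute value of 0.34 against 0.15 in Vc-. The Vc- values rest on few libraries: without Vc- Flag+shLuc, Pou5f1 and Sox2 were called lower with Tet1CD in that medium too (limma adjusted p 0.00892 and 0.0369), as they were without Vc- Tet1CD (0.00927 and 0.0372). The difference of Pou5f1 was called without Vc- Dnmt1 (adjusted p 0.0438) or without Vc- Tet1CD+Dmnt1 (0.0439).

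For Myc no difference between the media was detected. Its change was -1.07 in Vc- and -1.23 in Vc+, and the difference of -0.15 ± 0.20 (SE; limma adjusted p 0.636) had a 95% interval of -0.61 to 0.30, so differences within that interval are not excluded by this fit. As the ceiling leaves the size of the fall in Vc- unresolved, the difference could also lie outside the interval. Its estimate was 0.016 without Vc+ Flag+shLuc or without Vc+ Tet1CD. The media also cannot be told apart from the separate normalization of their tables, although each fitted change lies within 1 table.

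**Figure D2:**
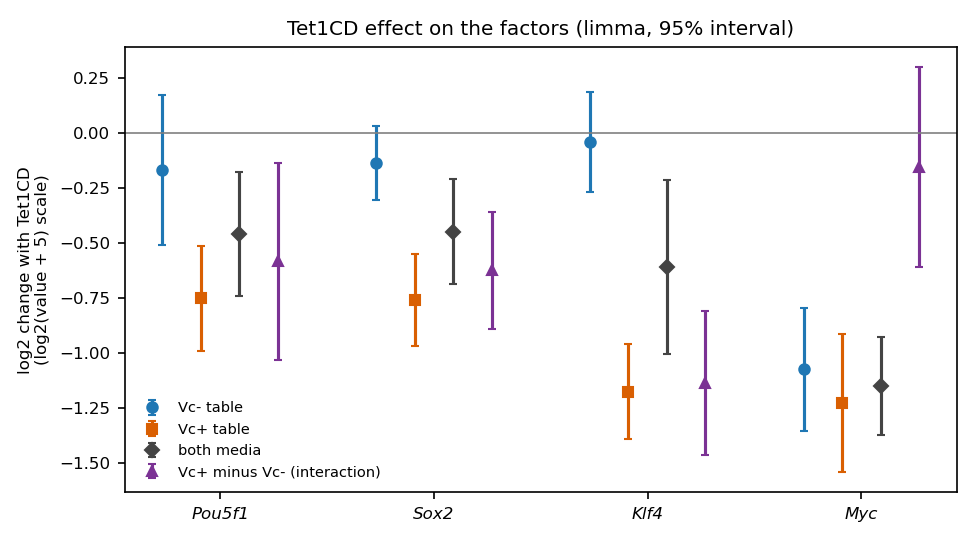
Fitted log2 change with Tet1CD (vertical axis, log2(value + 5) scale) for each factor, as estimates with 95% intervals from limma: circles Vc- table, squares Vc+ table, diamonds both media, triangles the difference between media. The triangles of Klf4 and Sox2, at -1.14 and -0.62, stand well below 0, and that of Myc, at -0.15, has an interval across 0.

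The 3 other constructs gave no called change of any factor. The shDnmt1 term, in a fit that called 2 of 10711 genes (0.0187%), was 0.17 for Klf4 (95% interval -0.31 to 0.66), 0.10 for Myc (-0.18 to 0.37), 0.00 for Sox2 (-0.29 to 0.29) and -0.01 for Pou5f1 (-0.36 to 0.33). The Dnmt1 term called 0 genes with limma at an adjusted p under 0.05, and its estimate for Myc was -0.21 (-0.48 to 0.07). The interval for Klf4 reaches 0.66 with shDnmt1, so these constructs are not shown to be without effect.

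The shp53 term compares the shp53+shDnmt1 library with shDnmt1 in each medium and called 1 gene (0.00934%). Klf4, Pou5f1 and Sox2 were each highest, or on the highest step, in the shp53+shDnmt1 library of both media, except that Klf4 and Pou5f1 in Vc+ shared that step with the Dnmt1 library. The estimates were 0.27 for Klf4 (95% interval -0.36 to 0.90), 0.23 for Pou5f1 (-0.21 to 0.68) and 0.19 for Sox2 (-0.19 to 0.56), and Myc had -0.27 (-0.63 to 0.08). None passed the test. The same 2 libraries had the lowest summed fibroblast markers of their tables, 48973 against 65320 to 73227 in Vc- and 44432 against 57246 to 86611 in Vc+, and the part of this in the factor values was not tested.

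How the factors compared between media could be described but not tested, since the tables were normalized separately. Ratios were taken between libraries with the same constructs and centred on the median ratio of all genes, which lay between 0.52 and 0.57 on the log2 scale. Pou5f1 and Sox2 moved with the median gene in the 4 pairs without Tet1CD, at -0.03 to 0.08 and -0.01 to 0.10, and lay below it in the 3 pairs with Tet1CD, at -0.78 to -0.25 and -0.60 to -0.38. Klf4 ranged from -0.02 to 0.59 without Tet1CD, with 3 of 4 pairs above 0, and from -0.91 to -0.55 with it.

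Pou5f1, Sox2 and Klf4 were thus lower in all 3 Tet1CD pairs, as were 22.6% of all genes, and none of them was higher in all 4 pairs without Tet1CD, as 26.4% of genes were. Myc was below the median gene in all 7 pairs, which 8.1% of genes were, at -1.11 to -0.69 without Tet1CD and -1.34 to -0.51 with it. In the pairs without Tet1CD its Vc- value was at the ceiling, so the size of those ratios is not resolved. These ratios use the same libraries as the difference between media above and are not separate evidence of it.

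**Figure D3:**
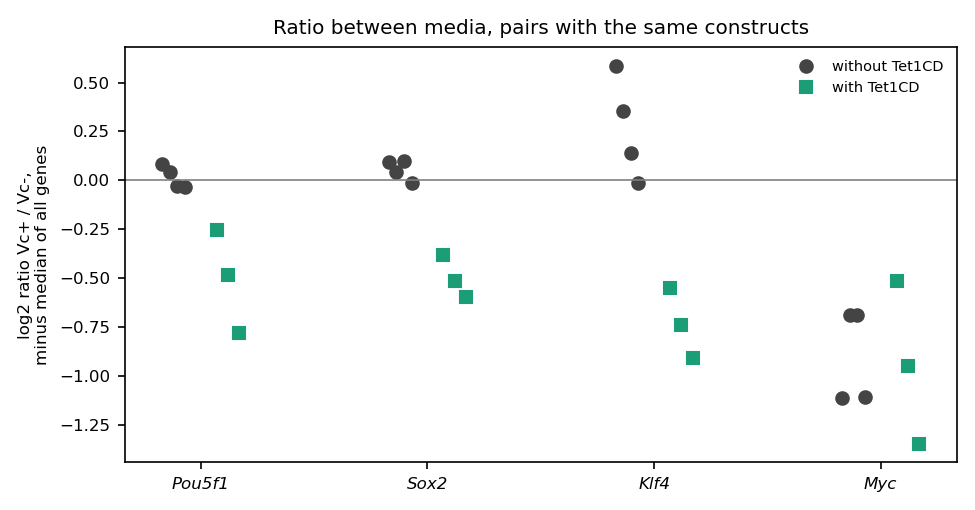
Log2 ratio of Vc+ over Vc- (vertical axis), minus the median ratio of all genes, for each factor in pairs of libraries with the same constructs: 4 pairs without Tet1CD (circles) and 3 with it (squares). Pou5f1, Sox2 and Klf4 lie near or above 0 without Tet1CD and below 0 with it, and Myc lies below 0 in all 7 pairs.

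In MEFs without the factor viruses, Klf4 and Myc showed the resident level. Klf4 was 526 in the control, 459 with Dnmt1, 568 with Tet1-CD, 520 with shDnmt1, 565 with shp53 and 603 with shp53+shDnmt1, a span within which no library stood apart. Myc was 839, 933, 760, 678, 1557 and 1049 in the same order, highest in the 2 libraries with shp53. Each MEF combination had 1 library, and the MEF values are described as ratios without a test.

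Myc was 1.85 times as high with shp53 as in the control and 1.54 times as high with shp53+shDnmt1 as with shDnmt1, and 5.78% of 9928 genes were at least 1.5-fold higher in both pairs. Klf4 was 1.07 and 1.16 times as high in the same pairs. Myc was lower with shDnmt1 in both of its pairs, by 0.31 and 0.57 on the log2 scale, as were 28.6% of genes in both. With Tet1-CD, Myc was 1.10-fold lower and Klf4 1.08-fold higher than in the MEF control. Tet1 was not listed in the MEF table, so that construct was not checked there. Whether the effects differ between the tables was not tested, and the Tet1-CD library followed the stepped list of its table in 0 of 50 blocks.

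The 5C Flag+shLuc library differed from the 6 MEF libraries for both genes. Klf4 was 22 and Myc 27 there, 19.7-fold and 26.4-fold lower than in the MEF control, and 1.66% of genes were at least 16-fold lower. Its summed fibroblast markers, 181262, lay within the range of the 6 MEF libraries (141158 to 186117), and its 7 listed macrophage and leukocyte markers summed to 4907 against 115 to 1472. The share of that in the values of Klf4 and Myc was not tested. The 5C library followed the stepped list of its table in 21 of 50 blocks, and its column header alone in that table names a day. Pou5f1 and Sox2 were not listed in the MEF table, where every listed gene has at least 32 in at least 2 libraries, so a level high in 1 library would not have been listed.

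**Figure D4:**
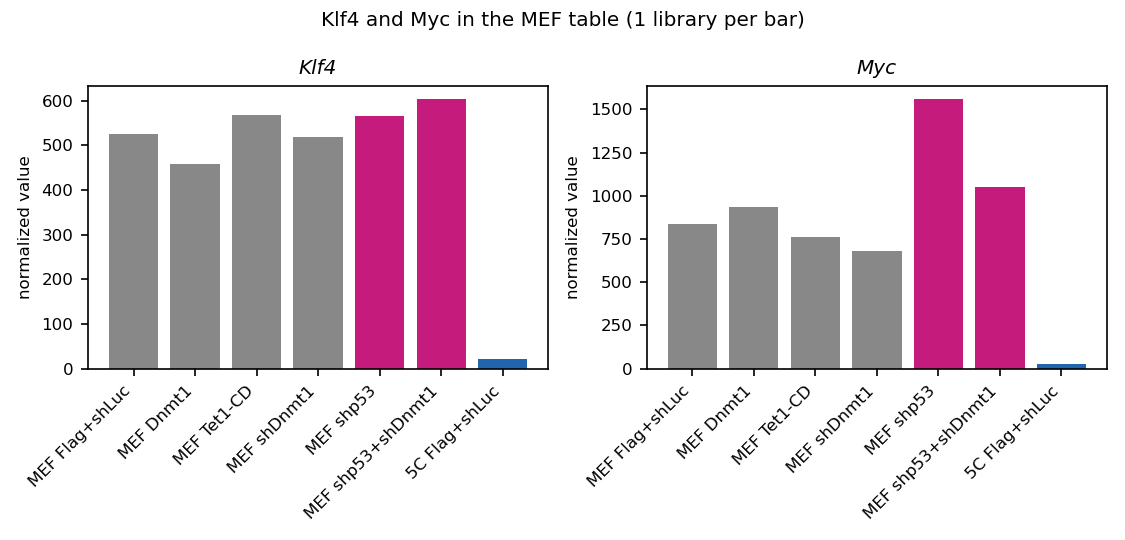
Normalized values (vertical axis, linear from 0) of Klf4 and Myc in the 7 libraries of the MEF table, 1 bar per library (grey control, Dnmt1, Tet1-CD and shDnmt1, magenta with shp53, blue 5C). Myc is highest with shp53, at 1557, and both genes are lowest in the 5C library, at 22 and 27.

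Set against the MEF library with the same constructs, and centred on the median gene, Klf4 was 9.59 to 14.2 times as high in the 5 Vc- pairs and 5.77 to 17.9 times in the 5 Vc+ pairs. Myc was 17.2 to 34.8 times as high in Vc- and 6.79 to 21.6 times in Vc+. At least 4-fold in all 5 pairs was reached by 0.771% of genes in Vc- and 0.492% in Vc+. The lowest Vc+ ratio of each gene was that of the Tet1CD pair. These ratios cross tables and are given without a test. The Vc- ratios of Myc without Tet1CD rest on ceiling values, so their size is not resolved.

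The likeness of the 4 factors to each other was described across the SKOM libraries. With each table centred on its own mean, Pearson's r over the 14 libraries was 0.97 between Pou5f1 and Sox2 (Spearman's rho 0.97), 0.97 between Klf4 and Sox2 (rho 0.95) and 0.94 between Klf4 and Pou5f1 (rho 0.92). Myc had 0.72 to 0.79 with the other 3 (rho 0.62 to 0.70), with 4 of its 14 values at the ceiling. These are descriptions over libraries that fall into those with and those without Tet1CD and that share constructs. Within Vc- alone, where those 4 values lie, Myc had r of 0.43 with Klf4, 0.76 with Sox2 and 0.65 with Pou5f1, and within Vc+ alone it had 0.90, 0.90 and 0.84.

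Among 9767 genes with a mean of at least 50, those most like Pou5f1 were Prkaa2, a catalytic subunit of the energy sensor AMPK (r 0.98), Alyref, an mRNA export adaptor (0.97), and Hira, a histone H3.3 chaperone (0.97), with Nrp1, a coreceptor of semaphorins and VEGF, most opposite (-0.97). For Sox2 they were Alyref, Alg13 and Pnpla3 (each 0.99), with Chst11, a chondroitin sulfotransferase, most opposite (-0.99). Klf4 was most like Arhgap36 (0.99), Foxd1 (0.98) and the homeobox gene Meis2 (0.98) and most opposite to the VEGF receptor Flt1 (-0.98). Myc was most like Fanci, of the Fanconi DNA repair pathway, Abcd2 and Plcb1 (each 0.95) and most opposite to the lysosomal enzyme Manba (-0.97). Arhgap36 spanned 24 to 129 in Vc- and 57 to 930 in Vc+.

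Genes known to answer to Myc were taken as a list of 34 raised and 11 lowered by it in the literature. Of the 34 raised genes, all tested, 30 were called lower with Tet1CD over both media, 1 higher (Ccnd2) and 3 not called, with a median of -0.50 against -0.04 over all genes and 24.9% of all genes called lower. The largest falls were those of the folate enzyme Shmt1 (-1.02), the transferrin receptor Tfrc (-0.99), the mitochondrial chaperone Hspd1 (-0.98) and nucleolin, Ncl (-0.87). Shmt1 was 287, 311, 296 and 369 in the 4 Vc- libraries that lacked Tet1CD and 217, 147 and 149 with it, and 547, 607, 557 and 692 against 234, 233 and 249 in Vc+. Npm1, one of the 3 not called, was at the ceiling in all 14 libraries, where no change could be seen.

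Within each medium, 20 of the 34 were called lower in Vc-, against 7.38% of all genes, and 28 in Vc+, against 23.6%. The Vc- calls are fragile, since over all genes 1568 were called there with all libraries and 5 without Vc- Dnmt1 or without Vc- Tet1CD+Dmnt1. In Vc+ 5319 were called with all libraries, 2235 without Vc+ Dnmt1 and 2231 without Vc+ Tet1CD+Dmnt1. The difference between media was called lower for 9 of them, against 8.28% of all genes. Of the 8 lowered genes tested, 6 were called higher with Tet1CD and 2 lower, with a median of 0.70 and 20.3% of all genes called higher. Within 1 medium, 3 of 8 rose in Vc- (7.25% of all genes) and 6 of 10 in Vc+ (20.7%). They included the matrix protein Thbs1 (1.16), the cell cycle inhibitor Cdkn2b (1.03) and the collagen Col1a2 (0.82), while Ndrg1 (-0.77) went the other way. Thbs1 reached the ceiling in all 6 Tet1CD libraries, and Col1a2 and Pdgfrb of this list are also fibroblast markers. The shDnmt1, Dnmt1 and shp53 terms over both media called none of the raised or lowered genes. The summed value of the 34 raised genes did not always move with Myc. In Vc+ it was 152308 with shp53+shDnmt1 against 114409 in the control, while Myc was 13535 against 18104. In MEFs with Tet1-CD both were lower, the sum at 58925 against 87046 in the control and Myc at 760 against 839. In MEFs with shp53 both were higher, at 113240 and 1557. The part of Myc in these genes was not tested.

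The partners and rivals of Myc were read beside it. Of 9 genes of the Myc network tested, Mlx (-0.40), Mxi1 (-0.37) and Zbtb17 (-0.24) fell, Mxd4 rose (0.17), and Max, the obligate partner of Myc, had -0.10 and was not called. The median of the 9 was -0.10, and the 3 of 9 that fell stand against 24.9% of all genes. In Vc- none of 9 was called, and in Vc+ 4 of 10 fell, against 23.6% of all genes.

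Relatives of the other factors were mixed in direction. Of 15 Klf and Sp genes tested, 6 fell, led by Klf8 (-0.66) and Klf11 (-0.56), and 4 rose, led by Klf6 (0.58) and Klf7 (0.58), against 24.9% of all genes lower and 20.3% higher. Of 6 other Sox genes, Sox12 (-0.86), Sox11 (-0.56) and Sox13 (-0.26) fell and none rose. Both POU genes tested fell, Pou6f1 by 0.44 and Pou2f1 by 0.38 on the log2 scale. In Vc- alone 1 of the 6 Sox genes and 1 of the 2 POU genes were called lower, against 7.38% of all genes.

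Epithelial genes that reprogramming with Klf4 switches on were taken as a further list. Of 8 tested, 5 fell with Tet1CD and 1 rose, with a median of -0.49, against 24.9% of all genes lower and 20.3% higher. The junction protein Cldn3 had -1.11, E-cadherin, Cdh1, -1.06, the adhesion molecule Epcam -1.01 and the surface marker Cd24a -0.69. Epcam was 34, 44, 45 and 51 in Vc- without Tet1CD and 33, 34 and 30 with it, and 140, 187, 235 and 332 in Vc+ without it and 44, 53 and 60 with it. Like Klf4, Epcam and Cldn3 had a called difference between media, -1.43 (limma adjusted p 0.00249) and -1.68 (0.00934), whereas Cdh1 did not (0.05, adjusted p 0.93). In Vc- alone, where Klf4 had -0.04, Cdh1 (-1.09, limma adjusted p 0.0321), Cd24a (-0.60, 0.0161) and Krt19 (-0.53, 0.0203) were called lower. Dsp went the other way there and was called higher (0.43, limma adjusted p 0.0486). Of all genes, 7.38% were called lower there and 7.25% higher. Cldn3 (-0.27) was not called in Vc-, and Epcam lay near the listing level of 32.

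Resident pluripotency genes were mostly not listed. Of 35 in the list, 10 were in both SKOM tables, and Nanog, Zfp42, Esrrb, Sall4, Lin28a and Utf1 were in neither. Of the 10, 5 fell with Tet1CD and 3 rose, with a median of -0.45, against 24.9% of all genes lower and 20.3% higher. In Vc- none of the 10 was called. In Vc+ 9 of 15 fell and 5 rose, against 23.6% and 20.7% of all genes, but some of the 15 are listed only because 1 of the groups is high, so that count is no support for a direction. Those with the largest changes were alkaline phosphatase, Alpl (-1.53), the RNA-binding protein Trim71 (-0.66), the cell cycle factor Mybl2 (-0.59) and the telomere and replication factor Rif1 (-0.56). Alpl was 84, 125, 103 and 148 in Vc- without Tet1CD and 107, 48 and 72 with it, and 124, 171, 165 and 99 in Vc+ against 16, 25 and 24.

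A list of genes for retroviral entry and for silencing of retroviral sequence bears on the factors because their viral copies are read in the same values. Of 24 tested, 18 fell with Tet1CD, none rose and 6 were not called, with a median of -0.32 and 24.9% of all genes called lower. In Vc- 8 of 24 fell and none rose, and in Vc+ 18 of 26 fell and 1 rose. Of all genes, 7.38% fell in Vc- and 23.6% in Vc+. The largest falls were those of Uhrf1, which brings Dnmt1 to replicated DNA (-0.83), the histone chaperone subunit Chaf1b (-0.77), the corepressor Trim28 (-0.70) and the heterochromatin protein Cbx3 (-0.59). Slc7a1, the receptor of ecotropic mouse retroviruses, named here after its values were seen, had -0.23 ± 0.07 (SE; limma adjusted p 0.0171), from 913 to 1268 without Tet1CD and 768 to 840 with it in Vc-, and from 1145 to 1298 and 972 to 1119 in Vc+. The lower factor values and the lower values of these genes stood in the same libraries, and the part of either in the other was not tested.

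**Figure D5:**
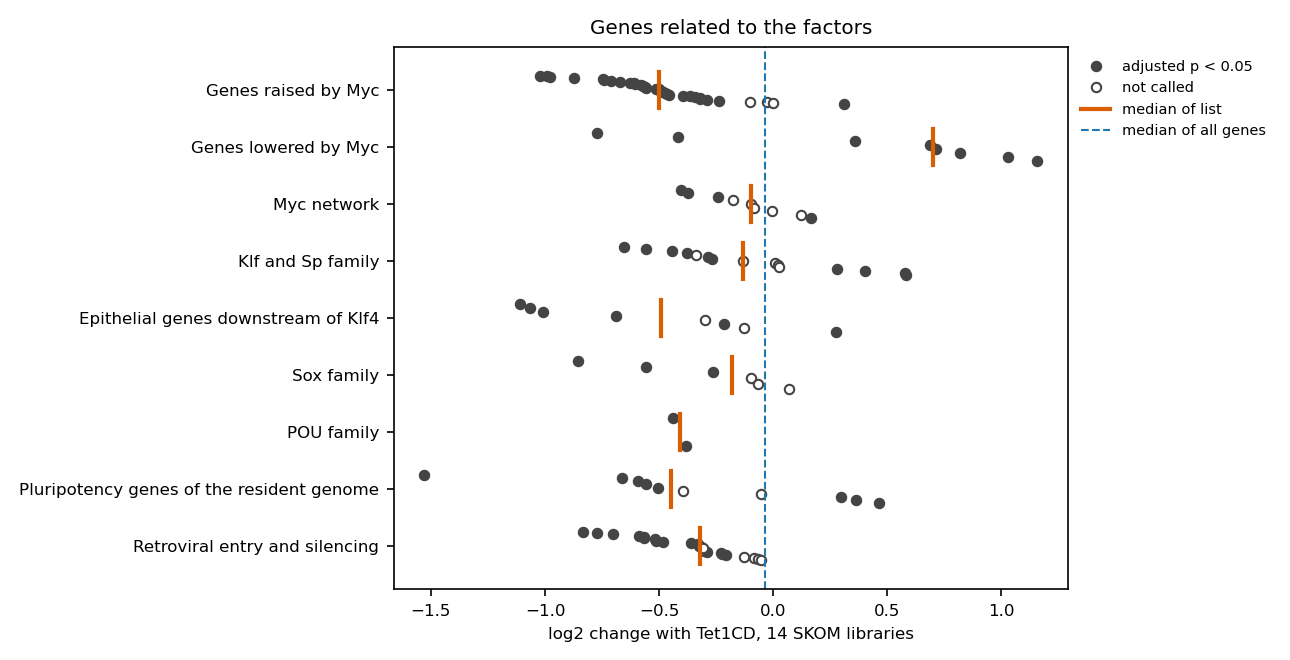
Fitted log2 change with Tet1CD over the 14 SKOM libraries (horizontal axis) of each tested gene in 9 lists related to the factors, filled where the limma adjusted p was under 0.05 and open where not; the orange bar is the median of the list and the dashed line that of all genes, -0.04. Genes raised by Myc lie mostly to the left, with a median of -0.50, and genes lowered by Myc mostly to the right, with a median of 0.70.

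Markers of other cells moved with Tet1CD as well. All 4 macrophage and leukocyte markers tested were called higher, as were 20.3% of all genes. Laptm5 and Ptprc rose by 1.90, Itgam and Cd68 by 1.64, with a median of 1.77. Their summed value was 302 to 400 without Tet1CD and 633 to 735 with it in Vc-. In Vc+, where Lyz2 was listed too, it was 338 to 493 and 2449 to 3250. The defining markers Adgre1, Csf1r, Cd14 and Mrc1 were listed in neither SKOM table.
Of 14 fibroblast markers tested over both media, 7 rose and none fell, against 20.3% and 24.9% of all genes, led by Col1a2 (0.82), Col3a1 (0.82), Acta2 (0.71) and Pdgfrb (0.69), with a median of 0.24. In Vc- alone 2 of 14 rose (Col1a2 and Pdgfrb) and 1 fell, Dcn, a matrix proteoglycan (-0.44, limma adjusted p 0.0167), while in Vc+ 7 of 15 rose and 1 fell. Of all genes, 7.25% rose and 7.38% fell in Vc-, and 20.7% rose and 23.6% fell in Vc+. Vim had the same fit in Vc- as Npm1, which was at the ceiling, so no change of Vim could be seen. Acta2 had no fitted change in Vc- either. Of keratinocyte markers only Krt14 was tested and rose (0.80), and of the endothelial markers Emcn rose (0.59) and Tek fell by 0.31 on the log2 scale. The part of these cells in the lower factor values was not tested.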

How the data were processed

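RNA sequencing values of 21 mouse libraries in 3 tables were used. Each deposited value is treated as a score: a whole number normalized by the authors within its table, as the values themselves show, with no depth to be read from it. Bowtie, RSEM and mm10 are named in the submitters' processing notes. Their versions and roles, the normalization and the strand setting are not stated there. Genes were taken by symbol and groups from sample titles. limma 3.58.1 in R 4.3.3 (empirical Bayes with an intensity trend) was run on log2(value + 5) for genes whose mean was 10 or more, with Benjamini-Hochberg adjustment over all genes tested and a threshold of 0.05. Residual degrees of freedom numbered 8 in the additive model, 4 with the interactions of construct and medium, and 2 where a medium was fitted alone; the code was tested on simulated data. Comparisons between tables and among MEF libraries are ratios without a test. No label gives separate cultures, so p-values measure the spread between these libraries, which may be technical. The genes named are the 4 factors, the targeted genes, up to 4 members of each list with the largest called Tet1CD change, and per factor the 3 genes most like it and the 1 most opposite by Pearson's r; a few single members, given for a count of 1 to 3 or for their values, were chosen after their values were seen. The factors and the 13 lists were chosen with earlier results of these data known. The alternatives covered pseudocount, filter, trend, scaling, model terms and left-out libraries.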

Additional observations from a re-analysis of the deposited data

Results flagged for a closer look

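2 results stood out because the fitted effect of a construct differed between the 2 media, whose tables were normalized separately. The Tet1CD effect on Klf4 differed by -1.14 on the log2 scale between Vc+ and Vc- (limma interaction term, adjusted p 0.00203), with lower values in 3 of 3 Tet1CD libraries of Vc+ and values within the spread of the others in Vc-. The Tet1CD effect on Sox2 differed by -0.62 (adjusted p 0.00921), again with 3 of 3 Tet1CD libraries lower in Vc+. Of all genes, 8.28% had a difference called lower, and 31.3% had all Tet1CD libraries below the others in Vc+. The 2 differences kept direction and call in the 6 other settings and with each of the 14 libraries left out in turn.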

How the results depend on the processing

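The Tet1CD effect on each of the 4 factors over both media kept its direction and call in the 10 other settings tried and with any 1 of the 14 libraries left out, the highest limma adjusted p being 0.0499 for Klf4. Over left-out libraries, the count for shDnmt1 ran from 0 to 3 (2 with all), with changes from -0.14 to 0.19 for Pou5f1, -0.081 to 0.13 for Sox2 and -0.012 to 0.18 for Myc, and the Dnmt1 changes from -0.092 to 0.23 for Pou5f1, -0.090 to 0.12 for Sox2 and -0.10 to 0.29 for Klf4. The count for shp53 ran from 1 to 5 (1 with all), and was 2 with a mean of at least 50, 2 without trend and 3 with size factors. The count for the difference between media ran from 761 to 2315 (1805 with all). The difference of Pou5f1 ran from -0.76 to -0.34 and was called, at -0.76, without Vc- Dnmt1 (adjusted p 0.0438) or without Vc- Tet1CD+Dmnt1 (0.0439). That of Myc ran from -0.36 to 0.016, positive without Vc+ Flag+shLuc or without Vc+ Tet1CD. In Vc- alone the Tet1CD count ran from 5, without Vc- Dnmt1 or Vc- Tet1CD+Dmnt1, to 2353, without Vc- Flag+shLuc (1568 with all), and was 304 without trend, with changes from -0.41 to 0.0098 for Pou5f1, -0.23 to -0.067 for Sox2 and -0.19 to 0.065 for Klf4. Pou5f1 (adjusted p 0.00892 and 0.00927) and Sox2 (0.0369 and 0.0372) were called there without Vc- Flag+shLuc and without Vc- Tet1CD. In Vc+ alone it ran from 2231, without Vc+ Tet1CD+Dmnt1 (2235 without Vc+ Dnmt1), to 5450 (5319 with all). The cause of these shifts was not tested, beyond the fewer libraries. Without centring, the median ratio of Vc+ over Vc- was -0.43 for Myc, 0.54 for Pou5f1, 0.55 for Sox2 and 0.55 for Klf4, as centring takes off the median gene. With a pseudocount of 1 the 5C ratio of Klf4 was -4.52 on the log2 scale. In Vc+ alone 1 of the 3 genes most like Myc stayed among its closest 100. No paired analysis was possible because each group has 1 library and the labels give no replicate numbers. Depth is unknown, so no counting error could be given, and 4 of the 14 Myc values sit at a ceiling.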

Other observations

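Of the 35 resident pluripotency genes, 5 were listed with vitamin C and not without it, and they differed in direction between libraries with and without Tet1CD. They were chosen for mention after their values were seen. A gene is listed where it has at least 32 in at least 2 libraries, and Nr0b1, Tdh, Tfcp2l1 and Dppa2 reach that in 1 of the groups alone, so they had to differ and their values are given without a test. Nr0b1, a nuclear receptor of embryonic stem cells, was 36, 76, 63 and 88 in the Vc+ libraries lacking Tet1CD and 5, 2 and 2 with it. Tdh, the threonine dehydrogenase of mouse embryonic stem cells, was 70, 92, 109 and 116 against 13, 18 and 6, and Tfcp2l1 67, 88, 76 and 85 against 33, 31 and 28. In the other direction, Dppa2, a chromatin-binding protein of early embryos, was 0, 0, 0 and 4 without Tet1CD and 46, 39 and 40 with it, and the growth factor Gdf3 was 19, 32, 62 and 80 against 101, 99 and 129 (1.54, limma adjusted p 0.00366 within that table). Within Vc+, Gdf3 was highest in the 3 libraries in which Pou5f1, Sox2, Klf4 and Myc were lowest, but it was chosen after its values were seen. The values of Dppa2 are no support for such a pattern, as the listing rule made it differ.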
